A study of Homo sapiens with 12 samples.

Results

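The 10 genes described here encode the enzymes that make and break down polyamines and the proteins that control the first of these enzymes. They are ODC1, AMD1, SRM and SMS for synthesis, SAT1, SMOX and PAOX for breakdown, and OAZ1, OAZ2 and AZIN1 for control of ODC1. They were taken by symbol from a count table of 36137 gene symbols, and all 10 were among the 18468 genes that passed the filter on low counts. RNA was measured in LNCaP, a human prostate cancer line that was established from a lymph node metastasis and responds to androgen, in 4 groups of 3 libraries each. The groups were PXN siRNA with DHT, non-specific siRNA with DHT, PXN siRNA with vehicle and non-specific siRNA with vehicle. PXN encodes paxillin, an adaptor protein of focal adhesions, and DHT (dihydrotestosterone) is a natural androgen. The cells of all 12 libraries had been transfected for 48 h and starved of serum for 12 h. These cells were then given either 2.5 nM DHT or ethanol, the vehicle, for 24 h. The labels name no second PXN siRNA, and the sources used here do not say how many siRNA sequences each reagent held. The labels number the replicates without saying that they were separate cultures, so the p-values below measure the spread between these libraries, which may be technical.

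Polyamines (putrescine, spermidine and spermine) are small positively charged molecules that bind RNA and DNA and are needed for growth. Ornithine decarboxylase makes putrescine, and the synthases SRM and SMS lengthen it to spermidine and then spermine with aminopropyl groups that AMD1 prepares from S-adenosylmethionine. SAT1 acetylates spermidine and spermine so that they are exported or oxidised back, and antizymes bind ornithine decarboxylase and deliver it to the proteasome. The luminal cells of the prostate secrete polyamines in large amounts, and ODC1 and AMD1 are described as androgen-responsive in rodent prostate.

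Sequences at annotated starts are shown for the 4 members that differed most with PXN siRNA, 3 lower (SRM, ODC1, AMD1) and 1 higher (SAT1). The sequences come from RefSeq promoter windows of GRCh38.p14 that run from 250 bases before an annotated start to 50 bases after it. The parts inside exons of GENCODE 29 were left off. Windows were found for 7 of the 10 members, and SMOX, PAOX and AZIN1 are named only. Capitals mark CACGTG, the E-box that MYC and related factors bind, searched on both strands, where it reads the same. Stretches were printed where they held CACGTG, and for AMD1 and SAT1 from the first window listed, so fold changes did not choose the stretches.
SRM: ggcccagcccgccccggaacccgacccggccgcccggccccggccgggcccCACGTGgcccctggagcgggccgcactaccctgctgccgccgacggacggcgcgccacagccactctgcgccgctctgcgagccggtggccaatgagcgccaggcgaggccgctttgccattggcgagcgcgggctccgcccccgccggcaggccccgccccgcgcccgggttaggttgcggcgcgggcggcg
ODC1: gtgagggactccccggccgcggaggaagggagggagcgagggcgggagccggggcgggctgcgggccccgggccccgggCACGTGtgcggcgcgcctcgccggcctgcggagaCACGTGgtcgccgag
AMD1: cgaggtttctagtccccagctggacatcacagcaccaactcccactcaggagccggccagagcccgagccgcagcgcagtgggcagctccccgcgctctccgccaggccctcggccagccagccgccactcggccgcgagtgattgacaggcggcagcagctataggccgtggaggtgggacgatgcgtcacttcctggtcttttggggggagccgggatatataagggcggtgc
SAT1: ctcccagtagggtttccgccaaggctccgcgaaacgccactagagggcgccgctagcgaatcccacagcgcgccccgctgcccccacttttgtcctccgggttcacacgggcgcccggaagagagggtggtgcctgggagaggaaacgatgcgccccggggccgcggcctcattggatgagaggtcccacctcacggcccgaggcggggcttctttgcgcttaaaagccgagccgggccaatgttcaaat
The SRM stretch lies at chr1:11060025-11060268 on the minus strand, and the ODC1 stretch at chr2:10447993-10448120 on the minus strand, where it belongs to a second annotated start inside the first intron of longer ODC1 transcripts. The AMD1 stretch lies at chr6:110874535-110874769 and the SAT1 stretch at chrX:23782923-23783172, both on the plus strand. CACGTG occurs at -199 from the start in the SRM window and at -29 and 5 in that ODC1 window. It is in none of the other windows of the 7 members, among them the ODC1 window at chr2:10448278-10448577, which is not printed. Over all 34943 windows, 7.23% hold it. AGAACA, the hexamer of androgen response elements, was searched on both strands too. It is in 14.8% of all windows and in none of the windows of the 7 members searched. These matches describe letters in a window and were not tested as binding sites.

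Library totals ran from 34321000 to 38633456 counts, and the most weakly expressed member, PAOX, had 133 to 238 counts in each library. PXN itself was at 19.96, 18.06 and 16.58 CPM in PXN siRNA libraries with DHT, against 113.4, 99.67 and 104 CPM in non-specific siRNA libraries with DHT. With vehicle it was at 15.2, 21.24 and 14.88 CPM, against 111.7, 106 and 107.5 CPM. CPM are counts per 1000000 counts of the TMM-scaled library size, and 1 CPM stood for 33.65 to 38.25 counts. The targeted transcript was therefore 5.8-fold lower with DHT and 6.34-fold lower with vehicle (adjusted p = 9.52e-09 and 7.73e-09). The 8 LNCaP identity genes summed to 2980 to 3550 CPM in PXN siRNA with DHT, 6350 to 6820 CPM in non-specific siRNA with DHT, 2390 to 2790 CPM in PXN siRNA with vehicle and 3640 to 4230 CPM in non-specific siRNA with vehicle. The 10 markers of other cells (basal, stromal, endothelial, leukocyte) summed to 54.1 to 63.5, 38.6 to 48.1, 51.6 to 52.1 and 38.3 to 44.2 CPM in the same 4 groups. COL1A1 and VWF made up most of that sum, KRT5, TP63, PTPRC and PECAM1 stayed under 0.1 CPM in every group mean, and none of the 10 was at 0 in all 12 libraries. Counts of mitochondrially encoded genes took 8.13 to 8.95% of each of the 6 PXN siRNA libraries and 4.69 to 7.55% of each of the 6 non-specific siRNA libraries. The part of these shifts in the results below was not tested.

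With PXN siRNA the transcripts for putrescine and spermidine synthesis, ODC1, AMD1 and SRM, fell to between 0.398 and 0.568 of their level with non-specific siRNA, and SAT1, the first enzyme of breakdown, rose 1.85-fold with DHT and 2.42-fold with vehicle. PAOX, a later enzyme of breakdown, fell under both treatments, and SMOX did not pass under either. Of the 10 members, 8 passed the test with DHT (1 higher and 7 lower), where 51.8% of all tested genes passed (25% higher and 26.7% lower). With vehicle 7 passed (1 higher and 6 lower), where 50.2% of all tested genes passed (23.9% higher and 26.3% lower). A change was called at an adjusted p under 0.05 by edgeR's quasi-likelihood test, adjusted over all tested genes. The members' median log2 fold change was -0.51 with DHT and -0.48 with vehicle, against 0.03 and 0.02 over all tested genes. Of the members 8 are above 100 CPM on average, a class of genes whose own medians were -0.18 and -0.15. Their median absolute log2 fold change was 0.63 with DHT and 0.64 with vehicle, against 0.36 and 0.35 over all tested genes. At an unadjusted p under 0.05 there were 9 members with DHT and 8 with vehicle, beside 57% and 55.7% of all tested genes. The libraries of the groups did not overlap for 9 members with DHT and for 8 with vehicle, as for 59.9% and 56.9% of all tested genes. Upper quartile scaling shifted the median of all genes to 0.13 with DHT and 0.117 with vehicle, and 60.7% and 60.2% of the calls were then higher, against 48.3% and 47.7% as reported; it called 9 members with DHT (2 higher and 7 lower) and 7 with vehicle. In these bulk samples fewer cells of a type and less RNA per cell cannot be told apart.

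**Figure D1:**
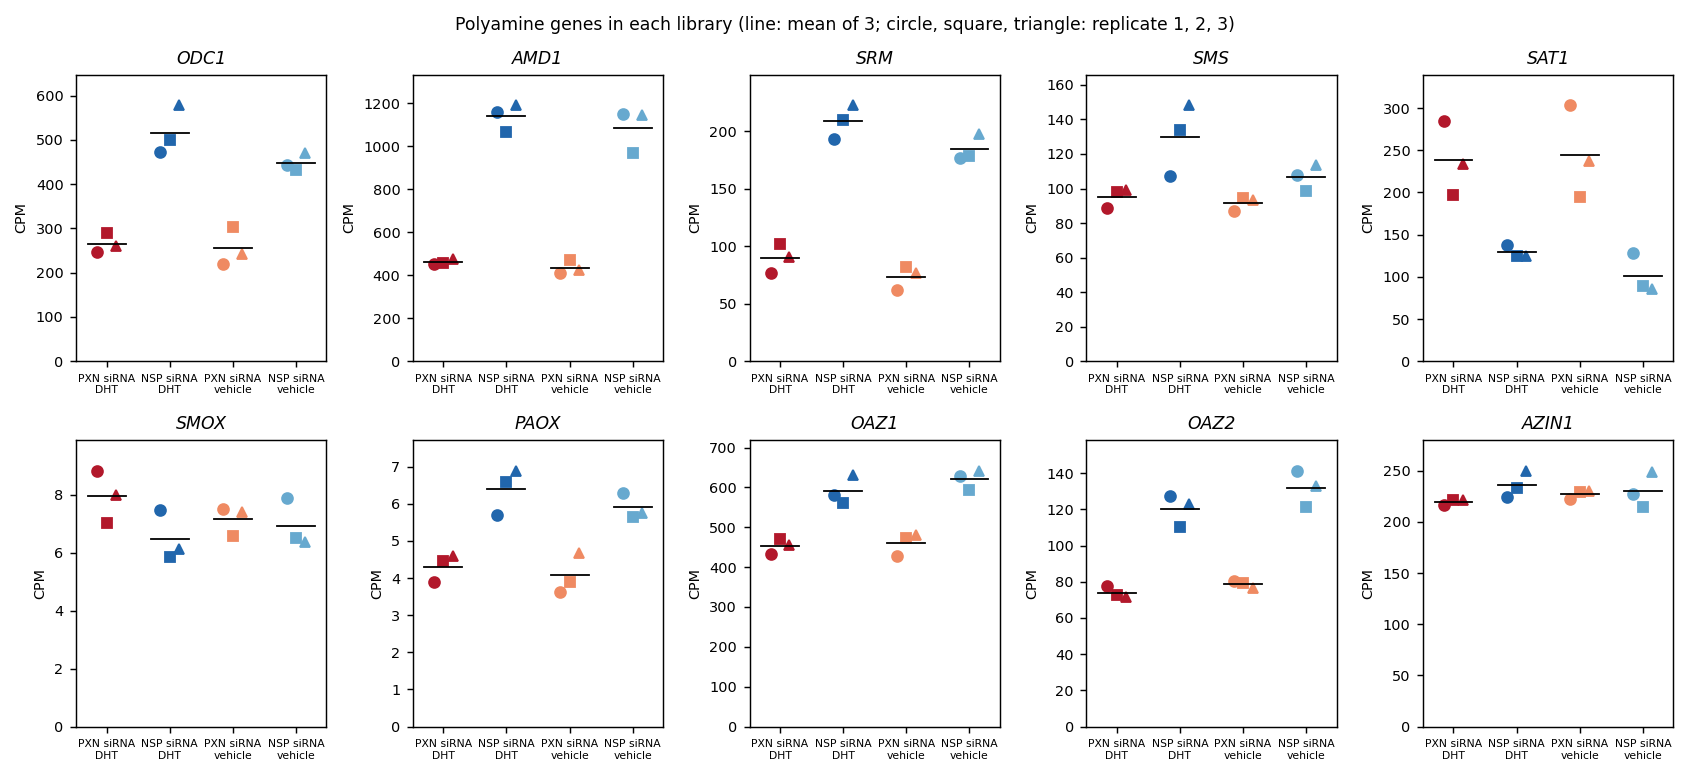
Level of each of the 10 genes in CPM (y axis, starting at 0) in the 3 libraries of each group, with PXN siRNA left of non-specific (NSP) siRNA for each treatment; lines are means. ODC1, AMD1 and SRM lie lower and SAT1 lies higher in every PXN siRNA library than in any non-specific siRNA library, while AZIN1 lies between 214.3 and 250.1 CPM throughout.

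ODC1 (chromosome 2, 10439968 to 10448504, minus strand, GRCh38), the enzyme that commits ornithine to polyamines, was at 247.2, 289.7 and 259.9 CPM in PXN siRNA libraries with DHT, against 472.1, 499.9 and 578.5 CPM in non-specific siRNA libraries with DHT. Under vehicle it was at 219.9, 303.4 and 241.9 CPM in PXN siRNA libraries, against 443.9, 431.5 and 471.7 CPM in non-specific siRNA libraries. The groups did not overlap under either treatment, and the highest PXN siRNA library, replicate 2 with vehicle, stayed well under the lowest non-specific one. The log2 fold change was -0.96 ± 0.11 with DHT (SE, adjusted p = 5.57e-06) and -0.82 ± 0.11 with vehicle (adjusted p = 2.54e-05), which is 1.95-fold and 1.76-fold lower. Reads of its processed copy ODCP came to at most 0.151% of the ODC1 count, and how reads matching both were counted is not known here.

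AMD1 (chromosome 6, 110874770 to 110895713, plus strand), the decarboxylase of S-adenosylmethionine, had the smallest standard error of the synthesis genes. It was at 453.6, 458.5 and 475.6 CPM in PXN siRNA libraries with DHT, against 1160, 1064 and 1190 CPM in non-specific siRNA libraries with DHT. With vehicle it was at 410.2, 470.2 and 426.2 CPM in PXN siRNA libraries, against 1148, 966 and 1144 CPM in non-specific siRNA libraries. It was thus the most counted of the 10 genes with non-specific siRNA and fell 2.46-fold with DHT and 2.49-fold with vehicle (log2 -1.30 ± 0.08 and -1.32 ± 0.08, adjusted p = 7.3e-08 and 6.61e-08). Counting from the largest fall among the 18468 tested genes, AMD1 stood at rank 423 with DHT and 424 with vehicle. The 3 AMD1 pseudogenes in the table had at most 2 counts in any library.

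SRM (chromosome 1, 11054584 to 11060024, minus strand), which makes spermidine, was at 76.4, 101.8 and 90.85 CPM in PXN siRNA libraries with DHT, against 193.5, 209.4 and 222.6 CPM in non-specific siRNA libraries with DHT. In vehicle, its level was 61.82, 82.12 and 76.55 CPM in PXN siRNA libraries, against 176.9, 178.9 and 197.7 CPM in non-specific siRNA libraries. No PXN siRNA library came near the lowest non-specific one. The fall was 2.33-fold with DHT and 2.51-fold with vehicle (log2 -1.22 ± 0.11 and -1.33 ± 0.11, adjusted p = 7.77e-07 and 4.05e-07), at ranks 493 and 417 from the largest fall.

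SMS (chromosome X, 21940573 to 21994835, plus strand), which turns spermidine into spermine, moved less than the other synthesis genes. It was at 89, 98.13 and 98.94 CPM in PXN siRNA libraries with DHT, against 107.5, 133.8 and 148.2 CPM in non-specific siRNA libraries with DHT, and fell by 0.45 ± 0.10 on the log2 scale (1.36-fold, adjusted p = 0.00133). Given vehicle, it was at 86.75, 94.29 and 93.44 CPM, against 107.7, 98.77 and 113.5 CPM, and the groups did not overlap. The log2 difference of -0.22 ± 0.10 with vehicle did not pass (adjusted p = 0.0697, 95% interval -0.43 to -0.02), and it passed with the replicate number as a block (adjusted p = 0.0129). Whether the size of the SMS fall differed between treatments was tested as an interaction, which gave -0.22 ± 0.14 (unadjusted p = 0.121).

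SAT1 (chromosome X, 23783173 to 23786226, plus strand), the acetyltransferase that starts polyamine breakdown and export, was the only member that rose. It was at 284.9, 197.4 and 234.2 CPM in PXN siRNA libraries with DHT, against 137.6, 125 and 125.2 CPM in non-specific siRNA libraries with DHT. Under vehicle its values were 303.3, 194.1 and 237.3 CPM in PXN siRNA libraries, against 128.6, 89.63 and 85.51 CPM in non-specific siRNA libraries. Its standard errors were the largest among the members, replicate 1 was highest in all 4 groups, and the groups still did not overlap. The log2 fold change was 0.89 ± 0.17 with DHT (adjusted p = 0.000568, 95% interval 0.52 to 1.25) and 1.27 ± 0.17 with vehicle (adjusted p = 3.04e-05, 95% interval 0.90 to 1.64). The interaction of -0.39 ± 0.24 did not pass (unadjusted p = 0.128, adjusted p = 1), so a smaller rise with DHT was not shown.

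The oxidases were weakly expressed, and in the main fit neither was called higher as SAT1 was. SMOX (chromosome 20, 4120980 to 4187747, plus strand), which oxidises spermine directly, was at 8.832, 7.037 and 7.985 CPM in PXN siRNA libraries with DHT, against 7.462, 5.84 and 6.122 CPM in non-specific siRNA libraries with DHT. With vehicle it was at 7.493, 6.567 and 7.399 CPM, against 7.898, 6.518 and 6.358 CPM, and the groups overlapped under both treatments. The log2 difference was 0.30 ± 0.13 with DHT (adjusted p = 0.0684) and 0.05 ± 0.13 with vehicle (adjusted p = 0.781). With upper quartile scaling the SMOX difference with DHT was 0.40 and passed (adjusted p = 0.0171), and leaving out replicate 1 of non-specific siRNA with DHT gave 0.39 (adjusted p = 0.0297). PAOX (chromosome 10, 133379234 to 133391694, plus strand), the peroxisomal oxidase of acetylated polyamines, was at 3.883, 4.461 and 4.586 CPM in PXN siRNA libraries with DHT, against 5.703, 6.587 and 6.894 CPM in non-specific siRNA libraries with DHT. In vehicle-treated cells it was at 3.624, 3.903 and 4.68 CPM, against 6.295, 5.653 and 5.754 CPM, with no overlap. PAOX fell by 0.57 ± 0.13 with DHT (1.48-fold, adjusted p = 0.00174) and by 0.53 ± 0.13 with vehicle (1.45-fold, adjusted p = 0.003) on the log2 scale. SAT1 and PAOX, which act one after the other in the same route of breakdown, thus moved in opposite directions.

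The antizyme transcripts OAZ1 and OAZ2 fell together with the enzyme that their products restrain, while OAZ3, a list gene given below, rose. OAZ1 (chromosome 19, 2269509 to 2273490, plus strand) was at 434, 470.4 and 456.5 CPM in PXN siRNA libraries with DHT, against 580.6, 561.9 and 631.3 CPM in non-specific siRNA libraries with DHT. Under vehicle it was at 428.6, 473.7 and 480.6 CPM, against 628.8, 593.2 and 642.3 CPM. OAZ1 fell 1.3-fold with DHT (log2 -0.38 ± 0.07, adjusted p = 0.000301) and 1.35-fold with vehicle (log2 -0.43 ± 0.07, adjusted p = 0.000119). Under cyclic loess scaling, chosen after seeing the data, the OAZ1 difference with DHT shrank to -0.15 and no longer passed (adjusted p = 0.0553), while with vehicle it lay between -0.49 and -0.23 and passed under each of 22 alternatives. OAZ2 (chromosome 15, 64687573 to 64703281, minus strand), whose product, like that of OAZ1, also restrains polyamine uptake, was at 77.6, 72.89 and 71.59 CPM in PXN siRNA libraries with DHT, against 127.3, 110.4 and 122.9 CPM in non-specific siRNA libraries with DHT. With vehicle its level was 80.3, 79.29 and 76.53 CPM, against 141.4, 121.5 and 132.6 CPM. The groups were far apart, and OAZ2 fell 1.62-fold with DHT and 1.68-fold with vehicle (log2 -0.70 ± 0.07 and -0.74 ± 0.07, adjusted p = 1.72e-06 and 1.02e-06).

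AZIN1 (chromosome 8, 102826357 to 102893864, minus strand), an inactive relative of ornithine decarboxylase that captures antizyme, was at 216.1, 221.1 and 221.5 CPM in PXN siRNA libraries with DHT, against 224.4, 232.7 and 250.1 CPM in non-specific siRNA libraries with DHT. Given vehicle, it was at 222.6, 229.1 and 229.8 CPM, against 227, 214.3 and 248.4 CPM. The log2 difference was -0.10 ± 0.06 with DHT (adjusted p = 0.194, 95% interval -0.24 to 0.03) and -0.02 ± 0.06 with vehicle (adjusted p = 0.84, 95% interval -0.15 to 0.12). These intervals, both within 0.24 of 0, are the narrowest among the members. The antisense transcript AZIN1-AS1 had at most 70 counts in a library. The sources used here do not say whether counting used the strand, and without it such opposite-strand reads could not be told apart from those of the member.

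**Figure D2:**
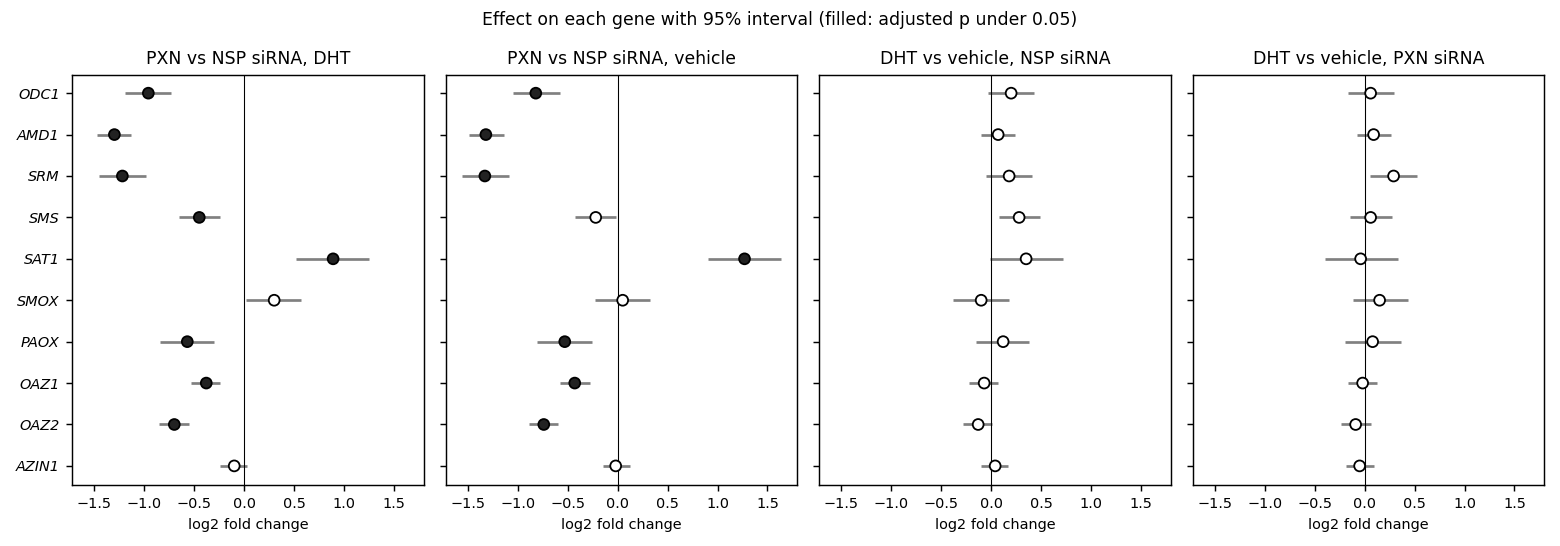
Log2 fold change of each gene (x axis) with its 95% interval in the 4 pairwise comparisons, filled where the adjusted p was under 0.05. In the PXN siRNA comparisons ODC1, AMD1 and SRM lie between -1.33 and -0.82 and SAT1 at 0.89 and 1.27, while all 10 genes are open points in both DHT comparisons, where the largest value is 0.35.

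Ratios of counts within a library do not depend on how libraries are scaled. SAT1 counts over ODC1 counts were 1.15, 0.681 and 0.901 in PXN siRNA libraries with DHT, against 0.291, 0.25 and 0.216 in non-specific siRNA libraries with DHT. With vehicle they were 1.38, 0.64 and 0.981 in PXN siRNA libraries, against 0.29, 0.208 and 0.181 in non-specific siRNA libraries. The breakdown transcript was therefore about as counted as the synthesis transcript after PXN siRNA and far below it after non-specific siRNA. ODC1 over OAZ1 averaged 0.585 ± 0.0268 in PXN siRNA with DHT and 0.873 ± 0.0536 in non-specific siRNA with DHT (SD, n = 3 each), and 0.552 ± 0.0766 and 0.723 ± 0.0148 with vehicle in the same order. AMD1 over SMS averaged 4.86 ± 0.217 in PXN siRNA with DHT and 8.92 ± 1.62 in non-specific siRNA with DHT, and 4.76 ± 0.215 and 10.2 ± 0.448 with vehicle. SRM over SMS averaged 0.938 ± 0.0909 in PXN siRNA with DHT and 1.62 ± 0.157 in non-specific siRNA with DHT, and 0.801 ± 0.0807 and 1.73 ± 0.0845 with vehicle. The ratios are a description, and no test was run on them.

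**Figure D3:**
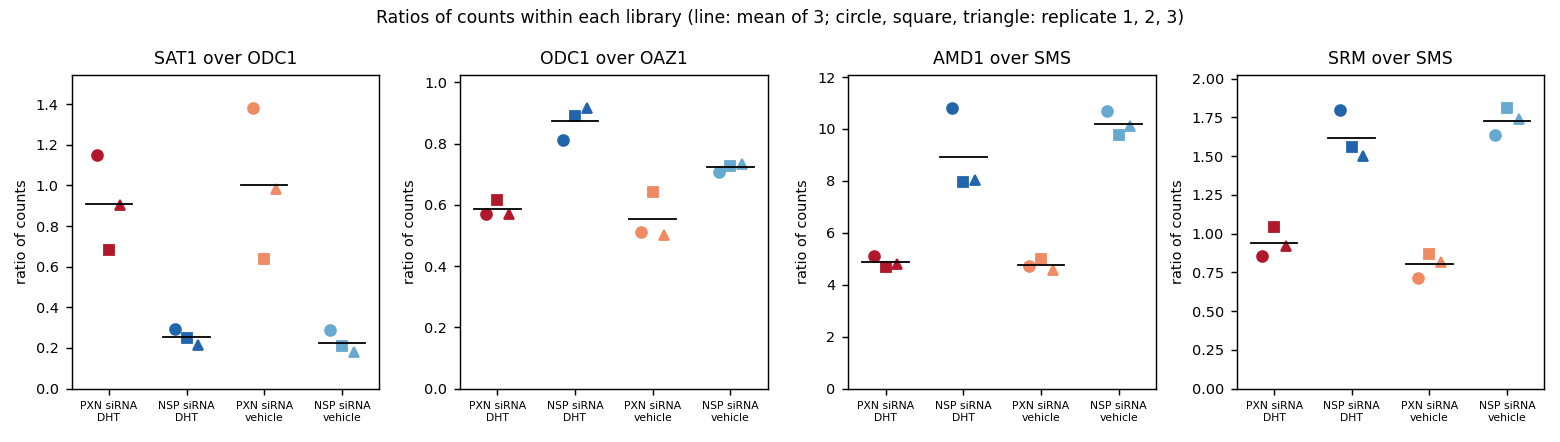
Ratio of counts of 2 genes within each library (y axis, no unit, starting at 0) by group, with PXN siRNA left of non-specific siRNA for each treatment; lines are means of 3. SAT1 over ODC1 lies between 0.64 and 1.38 in the 6 PXN siRNA libraries and between 0.181 and 0.291 in the 6 non-specific siRNA libraries, and the other 3 ratios lie lower with PXN siRNA.

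Levels between genes were compared per kilobase of exon. With PXN siRNA and vehicle, the order from the highest was OAZ1 at 134 ± 8.22, SAT1 at 98 ± 22, ODC1 at 85.9 ± 14.6, AMD1 at 62 ± 4.42, SMS at 42.4 ± 1.91, SRM at 38.7 ± 5.53, AZIN1 at 35.4 ± 0.618, OAZ2 at 10.3 ± 0.254, SMOX at 2.43 ± 0.173 and PAOX at 1.79 ± 0.24 CPM per kilobase (SD, n = 3). The ranges of mean ± SD overlapped for the neighbours SAT1 and ODC1, SMS and SRM, and SRM and AZIN1. With non-specific siRNA and vehicle, the order was OAZ1 at 181 ± 7.38, AMD1 at 155 ± 14.8, ODC1 at 151 ± 6.94, SRM at 97.2 ± 6.05, SMS at 49.4 ± 3.44, SAT1 at 40.5 ± 9.52, AZIN1 at 35.8 ± 2.68, OAZ2 at 17.2 ± 1.3, PAOX at 2.59 ± 0.152 and SMOX at 2.35 ± 0.287 CPM per kilobase. Here those ranges overlapped for AMD1 and ODC1, SMS and SAT1, SAT1 and AZIN1, and PAOX and SMOX. SAT1 stood at rank 2 in both PXN siRNA groups and at rank 6 in both non-specific siRNA groups, and SRM moved the other way. The order depends on the length used: over the longest transcript alone SAT1 ranked 1 in both PXN siRNA groups and 5 in both non-specific siRNA groups. By that length SAT1 was at 210 and ODC1 at 100 CPM per kilobase in PXN siRNA with DHT, and SAT1 at 216 and ODC1 at 96.1 in PXN siRNA with vehicle.

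**Figure D4:**
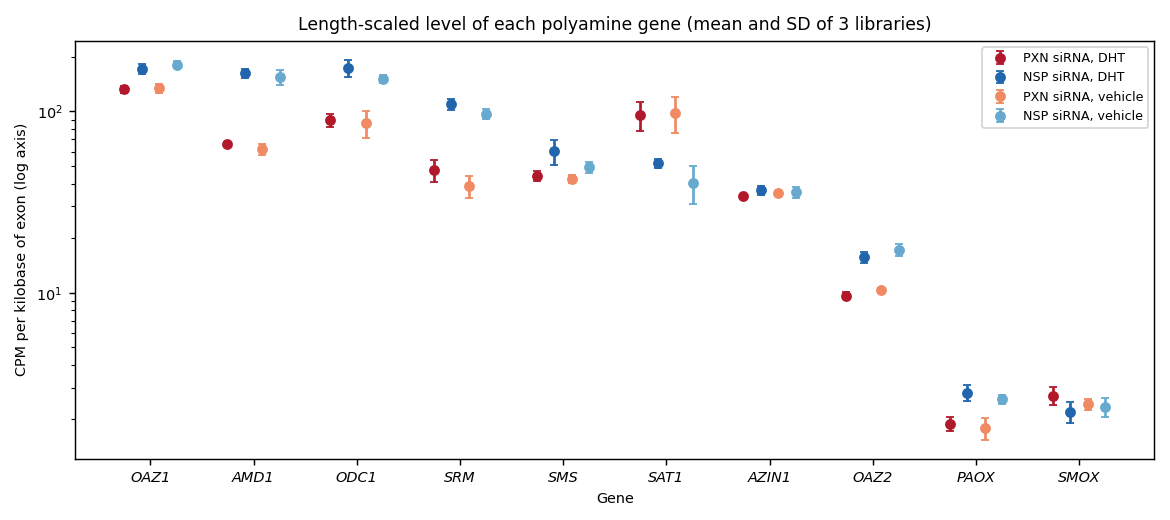
Level of each gene in CPM per kilobase of exon (log axis) by group, as mean and SD of 3 libraries, with genes ordered by non-specific siRNA with vehicle. By this length SAT1 is at 95.6 and ODC1 at 89.5 in PXN siRNA with DHT, and SAT1 at 98 and ODC1 at 85.9 in PXN siRNA with vehicle, while SMOX and PAOX stay under 3 CPM per kilobase in every group.

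In the main fit, which had no replicate block, DHT alone changed none of the 10 transcripts. With the block, given below, 2 passed. With non-specific siRNA 0 members passed in edgeR's quasi-likelihood test, where 4.87% of all tested genes passed (2.72% higher and 2.16% lower). At an unadjusted p under 0.05 there was 1 member, SMS, beside 16.6% of all tested genes; DESeq2 and limma-voom also called 0 members. SMS averaged 129.8 CPM with DHT and 106.7 CPM with vehicle, a log2 fold change of 0.28 ± 0.10 (adjusted p = 0.124, 95% interval 0.08 to 0.49). SAT1 averaged 129.2 ± 7.22 CPM with DHT and 101.3 ± 23.8 CPM with vehicle, a log2 fold change of 0.35 ± 0.17 (adjusted p = 0.322). With the replicate number as a block, which was taken to pair the libraries of this comparison, both passed, SMS at 0.28 (adjusted p = 0.0149) and SAT1 at 0.38 (adjusted p = 0.00575). Without replicate 1 of non-specific siRNA with DHT, SMS was at 0.40 and passed without the block (adjusted p = 0.00491). ODC1 averaged 516.9 ± 55.2 CPM with DHT and 449 ± 20.6 CPM with vehicle and was the only member whose groups did not overlap, as 20.3% of all tested genes did not. Its log2 fold change was 0.20 ± 0.11 (adjusted p = 0.378, 95% interval -0.03 to 0.43), so a rise of up to 0.43 lies within the interval. AMD1 was at 0.07 ± 0.08 (adjusted p = 0.759, 95% interval -0.10 to 0.24). In the same libraries KLK3, the androgen-induced gene for prostate-specific antigen, rose by 1.78 ± 0.23 on the log2 scale (adjusted p = 0.000392).

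With PXN siRNA, DHT against vehicle gave 0 called members in edgeR, DESeq2 and limma-voom, where 0.184% of all tested genes passed in edgeR. At an unadjusted p under 0.05 there was 1 member, SRM, beside 7.46% of all tested genes. SRM averaged 89.67 ± 12.7 CPM with DHT and 73.5 ± 10.5 CPM with vehicle. Its log2 fold change was 0.29 ± 0.11 (unadjusted p = 0.0201, adjusted p = 0.529), and it passed with the replicate block (adjusted p = 0.0446). AZIN1 was the only member whose groups did not overlap, as 13.6% of all tested genes did not, with a log2 difference of -0.05 ± 0.06 (adjusted p = 0.933). The other 8 members lay between -0.09 and 0.15. KLK3 rose by 2.06 ± 0.23 on the log2 scale (adjusted p = 0.00191). The interaction, which asks whether the response to one treatment depended on the other, called 0 members in edgeR, DESeq2 and limma-voom, and 0 were under an unadjusted p of 0.05. Over all genes it called 0% in edgeR (4.21% under an unadjusted p of 0.05), 37 genes in DESeq2 and 0 in limma-voom. The 2 DHT comparisons share groups with the PXN siRNA comparisons, so no values were correlated between them.

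Genes that feed, extend or use the pathway were followed in 5 lists, of which 36 genes were tested. With DHT 24 of the 36 passed for PXN siRNA (6 higher and 18 lower), and with vehicle 22 did (6 higher and 16 lower), beside 51.8% and 50.2% of all tested genes; DESeq2 and limma-voom gave the same counts. Of 6 tested genes of arginine and ornithine supply 3 passed under both treatments, all lower, a share near the 51.8% and 50.2% of all tested genes, with a list median of -0.34 with DHT and -0.37 with vehicle. ARG2, the mitochondrial arginase that yields ornithine, averaged 43 ± 6.76 CPM in PXN siRNA with DHT and 117.8 ± 2.95 CPM in non-specific siRNA with DHT, and 33.14 ± 5.24 and 91.46 ± 9.26 CPM with vehicle in the same order. It fell by 1.45 ± 0.12 and 1.46 ± 0.12 on the log2 scale (adjusted p = 3.17e-07 and 3.33e-07), a larger fold than that of any member. OAT, which withdraws ornithine towards proline and glutamate, fell by 1.44 ± 0.21 with DHT and 1.22 ± 0.21 with vehicle at group means of 1.862 to 5.132 CPM, and ASL, which makes arginine, fell by 0.43 ± 0.10 and 0.39 ± 0.10.

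Of the 9 genes of S-adenosylmethionine supply and methylthioadenosine salvage 7 passed with DHT (1 higher and 6 lower), where 51.8% of all tested genes did, and 5 with vehicle (1 higher and 4 lower), where 50.2% did. The gene called higher with DHT was not the gene called higher with vehicle. MTAP, the phosphorylase that clears the methylthioadenosine left by polyamine synthesis, fell by 0.50 ± 0.08 with DHT and 0.38 ± 0.08 with vehicle (adjusted p = 0.000101 and 0.000987). AHCY, ENOPH1 and ADI1 fell by 0.31 to 0.44 with DHT and 0.30 to 0.46 with vehicle on the log2 scale. These falls were small beside that of AMD1, and the list medians were -0.31 with DHT and -0.19 with vehicle. Salvage also held the only list gene called higher by edgeR for DHT with non-specific siRNA, APIP, a dehydratase of this route, at 17.69 ± 2.54 CPM with DHT and 13.55 ± 0.0983 CPM with vehicle (log2 0.38 ± 0.10, adjusted p = 0.036). The APIP call was not followed through the alternatives in processing, unlike those of the other list genes named here.

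The 5 genes for eIF5A hypusination concern the use of spermidine, which DHPS attaches to the translation factor eIF5A and DOHH then hydroxylates. Under both treatments 4 of the 5 fell, as did 26.7% of all tested genes with DHT and 26.3% with vehicle, with list medians of -0.40 with DHT and -0.43 with vehicle. Of genes over 100 CPM, the class of EIF5A, 51.8% fell with DHT and 48% with vehicle. Of genes at 10 to 100 CPM, the class of DHPS and DOHH, 38.7% and 37.9% fell. EIF5A averaged 160.5 ± 17.8 CPM in PXN siRNA with DHT and 347 ± 13.8 CPM in non-specific siRNA with DHT, and 149.8 ± 21.7 and 336.9 ± 7.68 CPM with vehicle in the same order. It fell 2.16-fold with DHT and 2.25-fold with vehicle (adjusted p = 5.37e-07 and 3.62e-07). DHPS fell by 0.34 ± 0.07 and 0.40 ± 0.07 on the log2 scale. DOHH fell by 0.40 ± 0.13 with DHT (adjusted p = 0.0183) and 0.43 ± 0.13 with vehicle (adjusted p = 0.0132). The DOHH call was lost with DHT under upper quartile scaling (adjusted p = 0.0691) and without non-specific siRNA replicate 2 (0.0637), PXN siRNA replicate 1 (0.0503) or PXN siRNA replicate 3 (0.0643), and with vehicle without non-specific siRNA replicate 3 (0.0527). EIF5AL1, the fourth, is a near-identical copy of EIF5A at 0.5896 to 1.506 CPM, and how reads were shared between them is uncertain.

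Of 11 tested transporters 7 passed with DHT (2 higher and 5 lower) and 6 with vehicle (2 higher and 4 lower), shares near the 51.8% and 50.2% of all tested genes. SLC7A1, the main carrier of arginine and ornithine into cells, averaged 114.3 ± 12 CPM in PXN siRNA with DHT and 233.9 ± 11.5 CPM in non-specific siRNA with DHT, and fell 2.05-fold with DHT and 1.93-fold with vehicle (adjusted p = 2.09e-06 and 4.54e-06). SLC22A2, an organic cation transporter, fell by 1.34 ± 0.14 with DHT and 1.52 ± 0.14 with vehicle on the log2 scale at 4.516 to 14.15 CPM. SLC3A2, the heavy chain of amino acid exchangers, linked to polyamine export in colon cells, rose 1.63-fold with DHT and 1.61-fold with vehicle, to 379.5 ± 26.1 and 367.7 ± 32.8 CPM with PXN siRNA, against 232.5 ± 16.3 and 229 ± 20 CPM with non-specific siRNA. ATP13A4, a P-type ATPase implicated in polyamine transport, had 18, 5 and 14 counts in PXN siRNA libraries with DHT, against 1, 0 and 0 counts in non-specific siRNA libraries with DHT. With vehicle it had 31, 21 and 21 counts in PXN siRNA libraries, against 0, 1 and 0 counts in non-specific siRNA libraries. It was called higher under both treatments, and its fold is not given because it rests on a group at or near 0.

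Among the remaining polyamine enzymes and antizyme relatives, 3 of 5 rose under both treatments, where 25% of all tested genes rose with DHT and 23.9% with vehicle. Of genes at 1 to 10 CPM, the class of OAZ3 and AZIN2, 32.7% and 29.5% rose. OAZ3, best known as the antizyme of the testis, rose by 0.57 ± 0.09 with DHT and 0.64 ± 0.09 with vehicle on the log2 scale, to 10.07 ± 0.548 and 9.79 ± 0.578 CPM with PXN siRNA. AZIN2, a second antizyme inhibitor, rose by 0.71 ± 0.18 and 0.64 ± 0.17, at 1.583 to 2.582 CPM. SAT2, a relative of SAT1 that acts on other substrates, rose by 0.27 ± 0.06 with DHT and 0.20 ± 0.06 with vehicle (adjusted p = 0.0012 and 0.00932). The SAT2 call with vehicle was lost without the low-count filter (adjusted p = 0.0756) and without non-specific siRNA replicate 2 (0.0623) or 3 (0.0639) or PXN siRNA replicate 3 (0.0814). The direction of OAZ3 and AZIN2 was thus opposite to that of OAZ1 and OAZ2, at far lower counts. AOC1, a diamine oxidase that degrades putrescine, had 12, 10 and 10 counts in PXN siRNA libraries with DHT, 30, 9 and 12 in non-specific siRNA libraries with DHT, 20, 18 and 12 in PXN siRNA libraries with vehicle and 61, 49 and 31 in non-specific siRNA libraries with vehicle. AOC1 fell by 1.57 ± 0.38 on the log2 scale with PXN siRNA under vehicle (adjusted p = 0.00315) and by 1.45 ± 0.38 with DHT against vehicle in non-specific siRNA cells (adjusted p = 0.0392). The second call was lost in 8 of 21 alternatives, among them 4 of the 6 that left out a library of the comparison (replicate 1 or 2 with vehicle, replicate 2 or 3 with DHT; adjusted p = 0.175, 0.0755, 0.192 and 0.185). Over the 36 list genes, DHT changed 2 with non-specific siRNA (3 in DESeq2, 2 in limma-voom), a share near the 4.87% of all tested genes. At an unadjusted p under 0.05 in edgeR there were 6, a share near the 16.6% of all tested genes. With PXN siRNA DHT changed 0 list genes (0 in DESeq2 and in limma-voom), beside 0.184% of all tested genes. There 2 were under an unadjusted p of 0.05 in edgeR, beside 7.46% of all tested genes. These list counts are without the replicate block, and list genes not called in the main fit were not followed with it.

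**Figure D5:**
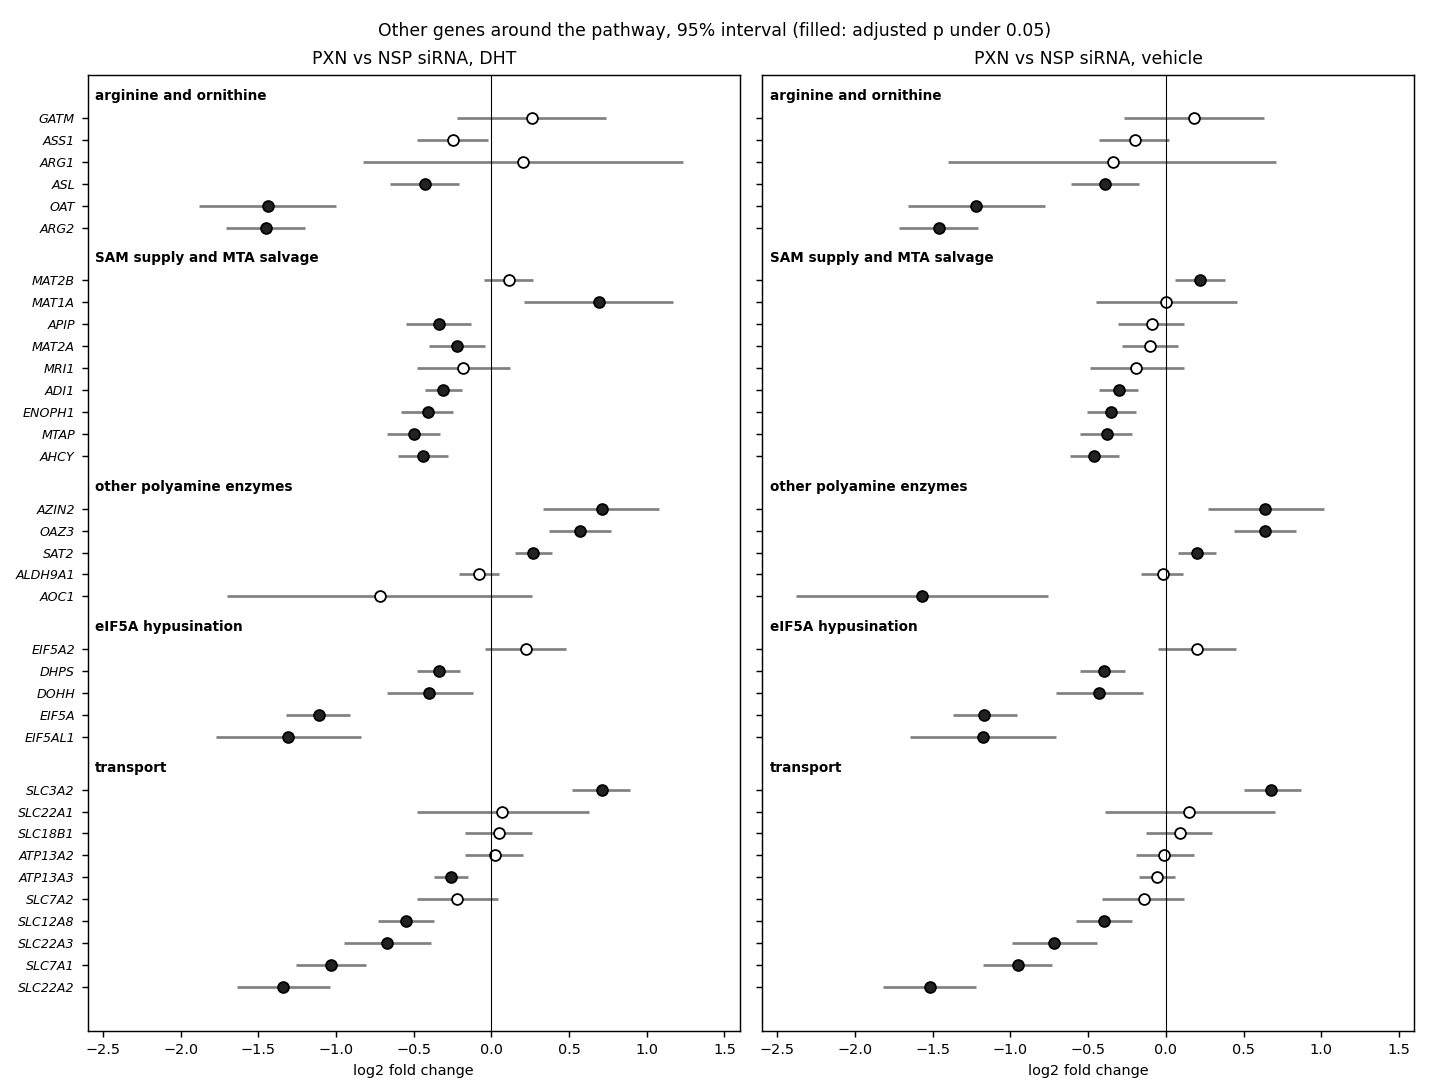
Log2 fold change (x axis) with 95% interval of the tested genes around the pathway for PXN siRNA against non-specific (NSP) siRNA with DHT (left) and with vehicle (right), filled where the adjusted p was under 0.05; ATP13A4 is left out because its counts with non-specific siRNA were 0 or 1. ARG2, SLC22A2 and EIF5A lie below -1 and SLC3A2, OAZ3 and AZIN2 lie between 0.57 and 0.71.

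The genes most like a member were named by the smallest root mean square difference of centred log2 CPM over the 12 libraries, among 11070 genes of at least 5 CPM. For ODC1 these were SRPK1 (0.0574), FARSB (0.0643) and RCC1 (0.0709), where the median gene differed by 0.452. SRPK1 averaged 55.82 ± 4.06 CPM in PXN siRNA with DHT, 107.6 ± 8.19 CPM in non-specific siRNA with DHT, 54.49 ± 9 CPM in PXN siRNA with vehicle and 99.68 ± 6.74 CPM in non-specific siRNA with vehicle. For AMD1 they were KIAA1143 (0.062), GLYR1 (0.0693) and KCTD20 (0.0753), where the median gene differed by 0.63. GLYR1 averaged 92.56 ± 3.05, 217.6 ± 7.79, 86.91 ± 6.79 and 213.8 ± 6.27 CPM in the same 4 groups. For SAT1 they included B3GALT4 (0.086) and PPIC (0.117), where the median gene differed by 0.642. B3GALT4 averaged 11.38 ± 1.99, 5.594 ± 0.267, 10.53 ± 2.2 and 4.698 ± 1.06 CPM in those groups. The points share libraries and their scaling, and likeness here is a description of these 12 libraries.

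Several other measures moved with the fall of the synthesis genes. MYC, whose product binds the E-box and which is known to act on ODC1, averaged 126.3 ± 18.9 CPM in PXN siRNA with DHT and 275.3 ± 2.32 CPM in non-specific siRNA with DHT, and 114.4 ± 19.4 and 253.2 ± 5.49 CPM with vehicle in the same order. Its log2 fold change was -1.12 ± 0.11 with DHT and -1.15 ± 0.11 with vehicle (adjusted p = 1.45e-06 and 1.29e-06). MKI67, a marker of cycling cells, fell by 1.93 ± 0.17 with DHT and 2.11 ± 0.18 with vehicle on the log2 scale (adjusted p = 8.1e-07 and 4.14e-07). Strongly expressed genes leaned lower in general: of the 2425 genes over 100 CPM, 51.8% fell and 15.5% rose with PXN siRNA under DHT, and 48% fell and 17.4% rose under vehicle, with medians of -0.18 and -0.15. Every member except SMOX and PAOX is in that class, and SAT1 went against its trend. The part of MYC, of proliferation and of expression level in the members' changes was not tested.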

How the data were processed

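Poly(A) RNA from 12 LNCaP libraries was measured, 3 in each of 4 groups placed by their labels. Per the labels' protocols, extraction used the RNeasy Plus Mini kit and library preparation the TruSeq Stranded mRNA kit. The authors deposited raw read counts for each gene symbol. The submitters' processing notes name featureCounts, Trimmomatic 0.32, STAR 2.4.2a, Subread 1.5.0p3 and GRCh38. The sources used here give neither the annotation nor the strand setting nor the handling of multiply mapped reads, so counts of overlapping or near-identical genes are less certain.

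Counts were tested in R 4.3.3 with edgeR 4.0.16. Genes passing filterByExpr over the 4 groups were scaled by TMM and fitted in 1 quasi-likelihood model of 4 group means (8 residual degrees of freedom), with Benjamini-Hochberg adjustment over 18468 genes. SEs were obtained as |log2 fold change| over the root of the F statistic, and 95% intervals use the matching t quantile. The fit was tested on simulated data. GENCODE 29 on GRCh38 gave lengths and positions, and the authors' own annotation may not be the same. Promoter windows were read from RefSeq tables, and letters beyond 20 bases after the start or inside GENCODE exons were not printed. Python 3.11.15 made the figures.

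The members and lists were chosen with earlier results of these data known. Named were all members, PXN, up to 4 called genes of each pathway list with the smallest p, the 3 genes most like ODC1, AMD1 and SAT1, and context genes where a result turned on them. APIP, outside this rule, was named after its value was seen. A gene that the rule names for SAT1 and a context gene are not reported here. Replicate numbers are shared by the groups, and nothing says what they mark. Deviations of same-numbered libraries from their group means had correlations of 0.121 to 0.21 in the vehicle comparison of the siRNAs. In the DHT comparisons they were 0.145 to 0.383 in non-specific siRNA cells and 0.1 to 0.307 in PXN siRNA cells. Each pair was over the limit of 0.1, so the numbers were taken to pair these groups, from the data and not from the labels. Differently numbered libraries were not compared, so these correlations do not show that the numbers mark pairs. The main fit nevertheless had no block, and fits with the replicate number as a block are given beside it as an alternative. Alternatives were other scalings, filters and tests (DESeq2 1.42.0, limma-voom with limma 3.58.1), the replicate block, fits of the compared groups alone, and omission of 1 library at a time. After seeing the data, cyclic loess scaling and a table stripped of mitochondrially encoded genes were tried too.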

Additional observations from a re-analysis of the deposited data

How the results depend on the processing

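For PXN siRNA, the 7 members called under vehicle kept their direction and their call in all 154 values from 22 alternatives, and the 8 called under DHT in 175 of 176, the exception being OAZ1 under cyclic loess scaling (-0.15, adjusted p = 0.0553). SMS under vehicle passed in 6 of 22 alternatives and SMOX under DHT in 5 of 22. For DHT with non-specific siRNA the count of members called was 0 as reported, 2 with the replicate block (SMS and SAT1), and 0 to 1 when each library was left out in turn, the 1 being SMS without replicate 1 of non-specific siRNA with DHT. Over all genes that comparison called 900, 2236 with the replicate block, and 416 to 1361 with each library left out, lowest without replicate 3 and highest without replicate 1 of non-specific siRNA with DHT. For DHT with PXN siRNA the count of members was 0, and 1 with the replicate block (SRM). Over all genes it called 34, against 188 with no low-count filter, 143 in DESeq2, 18 in a fit of the compared groups alone, 346 with the replicate block, and 10 to 80 with each library left out. The interaction called 0 genes, against 1 with DESeq2 size factors, 35 with no filter, 37 in DESeq2, 58 with the replicate block, and 0 to 45 with each library left out; 0 members passed under any of its 21 alternatives. The cause of these shifts was not tested.

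Values that changed sign were all uncalled. Under vehicle, PXN siRNA gave SMOX -0.01 with cyclic loess scaling, and AZIN1 0.08 with upper quartile scaling, 0.02 with a filter of 1 CPM and 0.15 with cyclic loess scaling. Under DHT it gave AZIN1 0.00 and 0.09 with upper quartile and cyclic loess scaling, and DHT with PXN siRNA gave OAZ1 0.00 with cyclic loess scaling. With each library left out, the signs of the following log2 values also changed: for PXN siRNA under vehicle SMOX (-0.02 to 0.14) and AZIN1 (-0.09 to 0.03); for DHT with non-specific siRNA AMD1 (-0.01 to 0.12), SMOX (-0.21 to 0.01) and AZIN1 (-0.01 to 0.11); for DHT with PXN siRNA ODC1 (-0.03 to 0.20), SAT1 (-0.18 to 0.15) and OAZ1 (-0.07 to 0.01); for the interaction AMD1 (-0.03 to 0.10), PAOX (-0.11 to 0.08), OAZ1 (0.00 to 0.10) and OAZ2 (-0.02 to 0.10). For PXN siRNA under DHT, same-numbered libraries correlated at 0.0769 to 0.284 and for the interaction at -0.0256 to 0.383, not all over 0.1, so the block there is a fit of numbers only; under DHT it turned SMOX into a call (0.30, adjusted p = 0.011), and in the other comparisons it changed no member's call beyond those given. Levels per kilobase with non-specific siRNA under vehicle moved by more than 1 SD for all 10 members when the longest transcript was used as the length. Among the pathway list genes named here, depth limited AOC1, EIF5AL1 and ATP13A4, which had fewer than 100 counts in every library. Some tested list genes that are not named were as weakly counted.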
